A study of Rattus norvegicus with 8 samples.

Results

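The genes described here build the structural extracellular matrix of the heart: collagens, elastic fibre proteins, matrix proteoglycans, adhesive and matricellular glycoproteins, laminins, nidogens and perlecan. They were chosen by symbol as a list of 49 genes, with earlier results of these data known. The list was divided by the place of their products into 36 genes of the interstitial matrix and 13 genes of the basement membrane. A total of 48 of them had a probe set named for them alone, out of 14217 such genes and 31042 probe sets on the array. The missing gene was Thbs1, for which no probe set was named here. The 48 genes had 78 probe sets, and each gene is described by its brightest probe set, that with the highest mean of the 8 arrays, unless stated otherwise.

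Atrial appendages and ventricular free walls of 13 normal male Sprague Dawley rats of 225 to 275 g were snap-frozen, and each tissue was made up into 4 pools of several animals, with 1 Affymetrix rat genome array for each pool and 10 μg of total RNA for each labeling reaction. Per the study's methods both tissues were from the left side of the heart, the age of the animals was not given in the sources used here, and the animals in each pool were not listed, so p-values measure the spread between pools. The values are log2 signal intensities, on which a difference of 1 is a factor of 2. Since whole tissue was measured, fewer cells of a type and less RNA per cell cannot be told apart.

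The tissue labels were checked against cardiomyocyte markers. All 5 atrial markers, among them Myl7 and Nppa, were higher in the atria and all 6 ventricular markers, among them Myl2 and Irx4, were lower (limma, Benjamini-Hochberg adjusted p of at most 0.008). The atrial pools were not alike in ventricular myosin light chain. Myl2 read 10.48, 4.32, 6.82 and 11.30 in atrial replicates 1 to 4, and 13.23 to 13.30 in the ventricles. Replicates 1 and 4 of the atria therefore stand apart, and the counts of called matrix genes are given below also without these 2 arrays.

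The interstitial matrix is the fibrous and gel-like space between muscle bundles and vessels. Fibrillar collagens give it tensile strength, elastic fibres give recoil, and proteoglycans and glycoproteins bind water, growth factors and collagen fibrils. In the heart it is made mainly by fibroblasts. The basement membrane is a thin sheet that wraps every cardiomyocyte and underlies every endothelial cell. It is built from a laminin network and a type IV collagen network that nidogens and perlecan tie together.

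Most of the interstitial genes on this list were more abundant in the atria, and none of its basement membrane genes was. Of 48 genes, 20 were called higher and 13 lower in the atria (limma, Benjamini-Hochberg adjusted p under 0.05, with all probe sets in the adjustment), and 15 did not pass. These counts are 41.7% and 27.1% of the genes, against 22.5% of all 14217 genes called higher and 22.5% called lower. All 20 genes that were higher belong to the 35 measured interstitial genes, of which 6 were lower and 9 did not pass. Of the 13 basement membrane genes, 0 were higher, 7 were lower and 6 did not pass. The median difference, atria minus ventricles, was 0.31 over the interstitial genes and -0.22 over the basement membrane genes, beside -0.04 over all genes. The difference between both sets of genes was not itself tested, and the list was chosen with earlier results of these data known. In wider lists, given below, 21 of 57 interstitial genes were higher and 8 lower. Of the basement membrane genes there, 6 of 15 were higher and 5 lower.

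Stricter thresholds, a limma adjusted p under 0.0001, set at the false discovery rate that the study's methods used with SAM, and their fold of at least 1.8, were passed by 11 interstitial genes in the atrial direction and by 3 basement membrane genes in the ventricular direction. Over all genes 3.37% passed in the atrial and 2.53% in the ventricular direction. In 20 genes the 4 atrial arrays all read above the 4 ventricular arrays, and in 14 genes they all read below, where 22.2% and 21.9% of all genes did so. Without atrial replicates 1 and 4, a setting chosen after the values were seen, 19 genes were higher and 11 lower. The plot of differences by role shows the divide: proteoglycans lie to the right of 0, and basement membrane collagens, laminins and perlecan lie at or to the left of it.

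**Figure D1:**
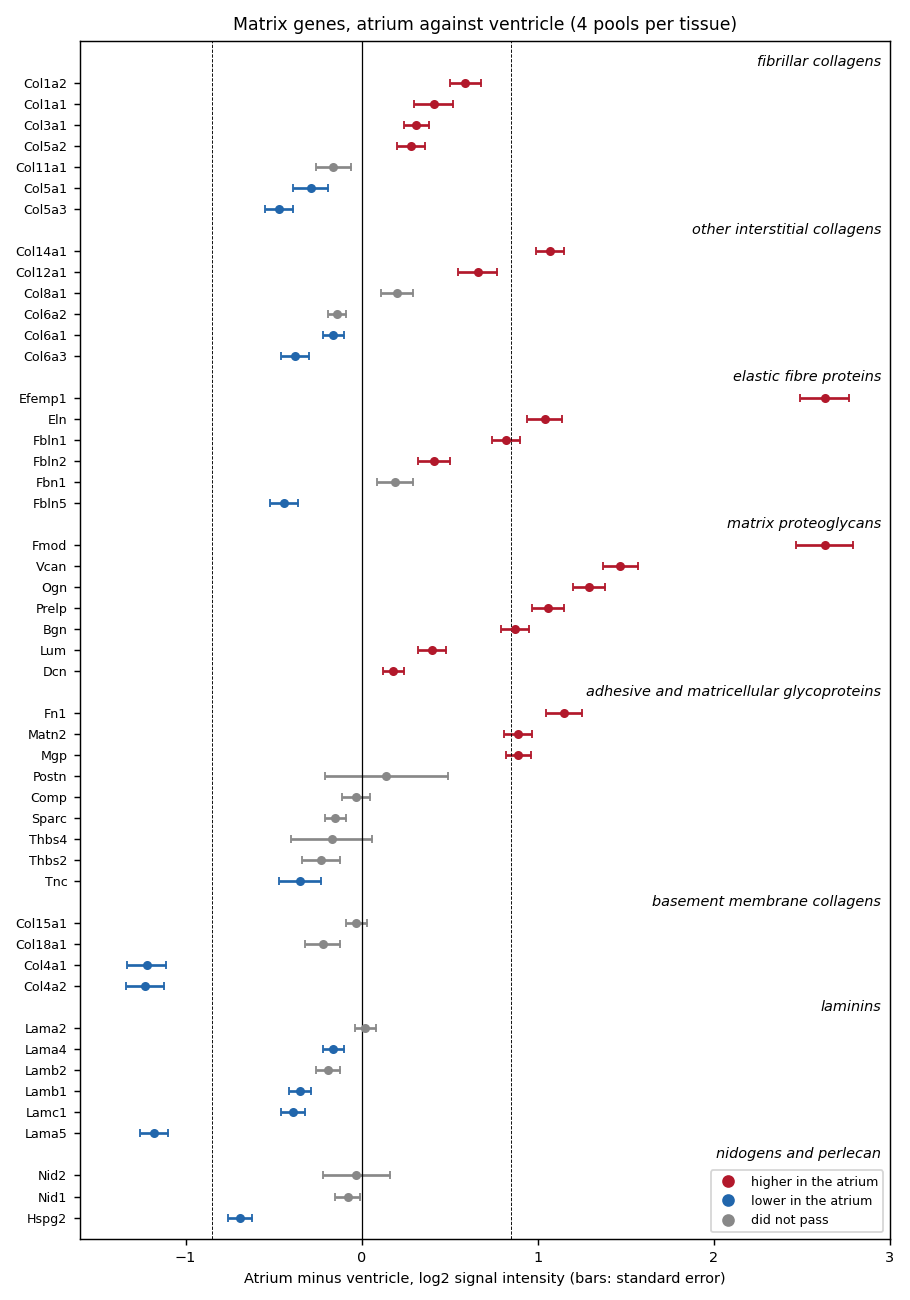
Difference between atria and ventricles for the 48 measured matrix genes, grouped by role, as log2 signal intensity with standard error bars (limma, 4 pools per tissue); dashed lines mark a fold of 1.8. Efemp1 and Fmod, both at 2.63, lie farthest to the atrial side, and Col4a2 at -1.23 and Col4a1 at -1.22 farthest to the ventricular side.

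Fibrillar collagens, which assemble into the load-bearing fibrils of scar and stroma, were 4 of 7 higher and 2 of 7 lower in the atria, with a median difference of 0.28. The chains of types I and III were on the atrial side, and the differences were small. Col1a2, the second chain of type I collagen, read 11.02, 10.99, 11.08 and 11.37 in atrial replicates 1 to 4 and 10.44, 10.53, 10.64 and 10.50 in the ventricles. Every atrial array read above every ventricular array, and the difference of 0.59 ± 0.09 (SE, n = 4 per tissue) was a fold of 1.5 (limma adjusted p = 0.00039). Col1a1, which encodes the first chain, read 10.80, 10.86, 10.92 and 11.34 in the atria against 10.46, 10.56, 10.72 and 10.55, a difference of 0.41 ± 0.11 (limma adjusted p = 0.017). Its 4 atrial arrays also lay above the 4 ventricular ones, but at its other probe set the arrays overlapped and the difference of 0.36 did not pass (limma adjusted p = 0.10). Col3a1, the type III collagen that mixes with type I in pliable tissue, read 12.22, 12.23, 12.28 and 12.33 in the atria and 11.89, 11.89, 12.11 and 11.92 in the ventricles. The difference of 0.31 ± 0.07 was a fold of 1.24 (limma adjusted p = 0.0041), with no overlap between tissues.

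Type V collagen, a minor component that limits the width of type I fibrils, was divided between tissues by chain. Col5a2, the neighbor of Col3a1 in gene order, was higher by 0.28 (limma adjusted p = 0.024), with atrial arrays from 9.74 to 10.09 and ventricular arrays from 9.52 to 9.71. Col5a3 was lower: it read 7.13, 7.27, 7.17 and 7.42 in the atria and 7.72, 7.82, 7.74 and 7.59 in the ventricles, a difference of -0.47 ± 0.08 (limma adjusted p = 0.00094). The tissues did not overlap for Col5a3. Col5a1 read 8.33, 8.34, 8.48 and 8.79 in the atria and 8.74, 8.74, 8.88 and 8.72 in the ventricles, so that atrial replicate 4 lay within the ventricular range. Its difference of -0.29 passed narrowly (limma adjusted p = 0.042). That call was lost when any array but atrial replicate 4 was left out, with an adjusted p of up to 0.11, and without atrial replicate 4 the difference was -0.39 (limma adjusted p = 0.0015). The call of Col5a2 was lost without atrial replicate 3 and without ventricular replicate 2 or 4 (limma adjusted p up to 0.065). Col11a1, a chain of cartilage-type fibrils, had both means under 4, near the low end of the signal on these arrays, and no size is given for it. It did not pass (limma adjusted p = 0.25), except as lower when atrial replicate 4 was left out (limma adjusted p = 0.035).

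The 250 bases before the start of Col1a2 are shown for the fibrillar collagen with the largest difference. They lie at chr4:33518307-33518556 of GRCr8 (RefSeq) on the plus strand, and capitals mark a CCAAT box, here on the other strand as ATTGG, and a TATA box, TATAAA.
Col1a2: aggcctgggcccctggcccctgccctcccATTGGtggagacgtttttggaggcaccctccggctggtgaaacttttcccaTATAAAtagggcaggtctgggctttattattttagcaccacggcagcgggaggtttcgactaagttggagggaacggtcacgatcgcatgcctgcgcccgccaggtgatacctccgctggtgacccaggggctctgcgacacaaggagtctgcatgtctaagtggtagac
TATAAA was found on either strand in 12.9% and CCAAT in 34.0% of all 33469 RefSeq windows of this length. A match describes letters and is no evidence of binding.

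The other interstitial collagens were 2 of 6 higher and 2 of 6 lower, with a median of 0.03. Col14a1, a fibril-associated collagen that sits on the surface of type I fibrils, was the largest of them. It read 9.97, 10.09, 10.00 and 10.10 in the atria and 8.91, 8.93, 9.19 and 8.83 in the ventricles. The arrays were far from overlapping, and the difference of 1.07 ± 0.08 was a fold of 2.1 (limma adjusted p = 3.2e-06). Col12a1, a relative of Col14a1, read 4.24, 4.43, 4.16 and 4.75 in the atria against 3.73, 3.66, 3.74 and 3.82, a difference of 0.66 (limma adjusted p = 0.001). Its ventricular mean was under 4, near the low end of the signal. Its other probe sets read under 4 in both tissues, and 1 of them was called in the opposite direction at -0.26 (limma adjusted p = 0.014), the only member with such a conflict, so no direction is set for Col12a1 as a gene.

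Type VI collagen, which forms beaded filaments next to the basement membrane, had differences below 0 in all 3 chains, of which 2 passed. Col6a3 read 9.42, 9.53, 9.40 and 9.69 in the atria and 9.88, 9.94, 9.98 and 9.76 in the ventricles, a difference of -0.38 ± 0.08 (limma adjusted p = 0.0036). No arrays overlapped. Col6a1 read 9.31, 9.32, 9.36 and 9.39 against 9.46, 9.48, 9.54 and 9.53, a difference of only -0.16 (limma adjusted p = 0.044) despite separate ranges, and its call was lost when any array but atrial replicate 4 was left out (limma adjusted p up to 0.10). Col6a2, its neighbor in gene order, had a difference of -0.14 that did not pass (limma adjusted p = 0.064), although its arrays did not overlap and it passed in 5 other settings (adjusted p from 0.0068 to 0.041 by SAM or limma). Col8a1, a short-chain collagen of vessel walls, had a difference of 0.20 (limma adjusted p = 0.09) that passed without atrial replicate 2, at 0.26 (limma adjusted p = 0.041).

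Elastic fibre proteins held one of the 2 largest differences of the matrix genes and 4 of 6 were higher, with a median of 0.61. Efemp1, which encodes fibulin-3, a short fibulin of elastic and basement membrane zones, read 9.34, 9.09, 9.13 and 8.62 in the atria and 6.37, 6.35, 6.29 and 6.64 in the ventricles. The lowest atrial array was thus far above the highest ventricular array. The difference was 2.63 ± 0.14, a fold of 6.2 (limma adjusted p = 2.1e-07). Eln, tropoelastin itself, read 8.35, 8.37, 8.17 and 8.72 in the atria and 7.38, 7.29, 7.36 and 7.42 in the ventricles. The ventricular pools were close together and the atrial pools all above them, with a difference of 1.04 ± 0.10 and a fold of 2.06 (limma adjusted p = 1.9e-05). Fbln1, a fibulin that binds fibronectin and elastin, read 6.77, 6.72, 6.83 and 6.64 against 5.73, 5.98, 6.03 and 5.94, a difference of 0.82 ± 0.08 (limma adjusted p = 1.6e-05). Its other probe set read under 4 in both tissues and did not pass, at -0.08 (limma adjusted p = 0.42).

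Fbln2 was higher by 0.41 (limma adjusted p = 0.0042), with atrial arrays from 8.08 to 8.46 and ventricular arrays from 7.71 to 7.88. Fbln5, which encodes fibulin-5, an organizer of elastin assembly, was the one elastic fibre gene that was lower. It read 6.04, 6.02, 6.11 and 6.25 in the atria and 6.36, 6.56, 6.63 and 6.62 in the ventricles, a difference of -0.44 ± 0.08 (limma adjusted p = 0.0016). Eln and Fbln5 were thus on opposite sides, each without overlap between tissues. Fbn1, fibrillin-1 of the microfibril scaffold, read 9.80, 9.81, 9.86 and 10.26 in the atria and 9.71, 9.74, 9.85 and 9.66 in the ventricles. These ranges overlapped, and the difference of 0.19 did not pass (limma adjusted p = 0.16).

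The bases before the start of Efemp1 are shown because this gene and Fmod had the largest differences. They lie at chr14:106811614-106811863 of GRCr8 (RefSeq) on the plus strand. Capitals mark TGAATCA, a match to the loose AP-1-like pattern TGANTCA, in which N is any base. That pattern was in 6.34% of all windows. Capitals also mark a GC box, GGGCGG, here on the other strand, which 30.5% of all windows hold.
Efemp1: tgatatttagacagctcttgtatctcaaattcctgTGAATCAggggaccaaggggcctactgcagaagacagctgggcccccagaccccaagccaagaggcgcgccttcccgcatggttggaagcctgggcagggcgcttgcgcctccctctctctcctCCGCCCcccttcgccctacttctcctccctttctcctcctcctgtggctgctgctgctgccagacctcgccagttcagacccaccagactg

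Matrix proteoglycans were the one role in which every gene was higher in the atria, 7 of 7, and 5 of the 7 passed the stricter thresholds. Their median difference was 1.06. Each of these proteins carries glycosaminoglycan chains or is a close relative of those that do, and most are small leucine-rich proteins that bind collagen fibrils. Fmod, fibromodulin, which regulates fibril growth and crosslinking, read 8.06, 7.66, 7.94 and 7.59 in the atria and 4.96, 5.24, 4.92 and 5.61 in the ventricles. All atrial arrays were well above all ventricular arrays, and the difference was 2.63 ± 0.16, a fold of 6.18 (limma adjusted p = 4.9e-07). Its neighbor in gene order, Prelp, which links collagen to cell surface heparan sulfate, was higher by 1.06, a fold of 2.09 (limma adjusted p = 7e-06). Prelp read 8.19, 7.92, 8.13 and 7.82 in the atria and 6.84 to 7.05 in the ventricles.

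The bases before the start of Fmod lie at chr13:48045317-48045566 of GRCr8 (RefSeq) on the plus strand, with capitals for a CCAAT box and a GC box.
Fmod: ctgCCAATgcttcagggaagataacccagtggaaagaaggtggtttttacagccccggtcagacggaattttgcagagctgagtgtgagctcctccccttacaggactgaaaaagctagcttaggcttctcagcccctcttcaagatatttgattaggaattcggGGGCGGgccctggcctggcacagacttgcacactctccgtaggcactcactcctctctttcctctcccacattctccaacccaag
Efemp1 and Fmod each held a GC box in this window, and neither held TATAAA. A GC box is common: 30.5% of all windows held it. It was in 5 of 9 windows of matrix genes called higher in the atria (55.6%) and in 10 of 13 of those called lower (76.9%).

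Vcan, versican, the large hyaluronan-binding proteoglycan of loose matrix, read 7.99, 8.02, 8.02 and 8.35 in the atria and 6.59, 6.43, 6.78 and 6.68 in the ventricles. The difference of 1.47 ± 0.10 was a fold of 2.77 (limma adjusted p = 1.2e-06). Another 3 probe sets of Vcan were also higher, by 1.35 to 1.73, while its dimmest, under 4 in both tissues, was at -0.09 and did not pass (limma adjusted p = 0.31). Ogn, osteoglycin or mimecan, read 10.64, 10.93, 10.73 and 10.60 in the atria and 9.30, 9.48, 9.54 and 9.42 in the ventricles. The tissues were again separate, and the difference of 1.29 ± 0.09 was a fold of 2.45 (limma adjusted p = 1.1e-06). All 3 other probe sets of Ogn were higher too, by 1.26 to 1.45.

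Bgn, biglycan, was higher by 0.87 with arrays from 9.33 to 9.54 in the atria and from 8.47 to 8.74 in the ventricles (limma adjusted p = 8.9e-06). Lum, lumican, was higher by 0.40 (limma adjusted p = 0.0029). Its neighbor Dcn, decorin, the classical regulator of fibril diameter, read 11.40, 11.40, 11.55 and 11.47 in the atria and 11.26, 11.25, 11.32 and 11.29 in the ventricles. Its ranges did not overlap, but the difference of 0.18 was the smallest of the role and passed narrowly (limma adjusted p = 0.039). It was not called without atrial replicate 3 or 4 or any of the 4 ventricular arrays (limma adjusted p up to 0.11), nor without atrial replicates 1 and 4 together.

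Several of these genes are neighbors in the genome. Ogn, Omd and Aspn follow one another on chromosome 17 in the RefSeq gene order of GRCr8 and were higher by 1.29, 1.24 and 0.66. Prelp and Fmod on chromosome 13 and Dcn and Lum on chromosome 7 are other pairs, both higher in both genes. Vcan follows Hapln1 on chromosome 2, which also passed as higher (limma adjusted p = 0.046) but had both means under 4. Since all 7 proteoglycan genes were higher, a call shared by neighbors says no more than that count. Neighbors did not always share a call, as Col6a1, which passed as lower, and Col6a2, which did not pass, show on chromosome 20. Omd, Aspn and Hapln1 are from a wider list of matrix genes, and were named after their values were seen.

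**Figure D2:**
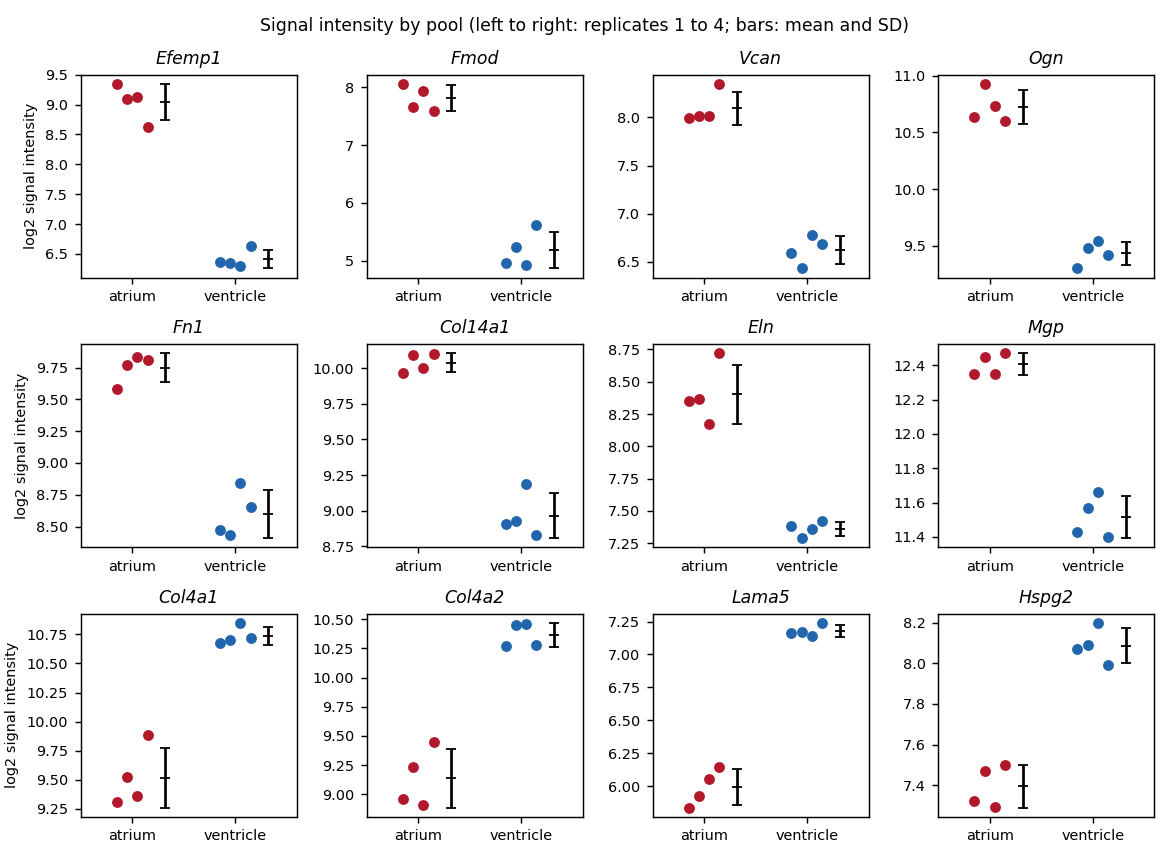
Log2 signal intensity in each pool for interstitial genes and, in the lowest row, 4 basement membrane genes; points from left to right are replicates 1 to 4 of a tissue, bars are mean and SD (n = 4), and the vertical axes do not start at 0. The tissues do not overlap for any gene plotted, and in atrial replicate 4 Efemp1 and Fmod read lowest while Vcan, Eln and Col4a1 read highest among the atrial pools.

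Adhesive and matricellular glycoproteins were 3 of 9 higher and 1 of 9 lower, with a median of -0.03, and the 3 higher genes all passed the stricter thresholds. Fn1, fibronectin, the main adhesive protein of provisional matrix, read 9.58, 9.77, 9.83 and 9.81 in the atria and 8.47, 8.43, 8.84 and 8.65 in the ventricles. No arrays overlapped, and the difference was 1.15 ± 0.10, a fold of 2.22 (limma adjusted p = 6.9e-06). Mgp, matrix Gla protein, an inhibitor of calcification, read 12.35, 12.45, 12.35 and 12.47 against 11.43, 11.57, 11.66 and 11.40, a difference of 0.89 ± 0.07 (limma adjusted p = 5.2e-06). Matn2, matrilin-2, an adaptor that bridges matrix filaments, read 7.54, 7.67, 7.76 and 7.73 against 6.83, 6.57, 6.86 and 6.85, also a difference of 0.89 (limma adjusted p = 1.2e-05). For both genes the lowest atrial array was clearly above the highest ventricular array.

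Of the other genes among the adhesive and matricellular glycoproteins, 1 was called lower in the atria and 5 did not pass. Over the role 33.3% were higher and 11.1% lower, beside 22.5% of all genes in each direction. Matricellular products modulate cell behavior in remodeling tissue, and these genes were not counted apart from the adhesive ones. Ccn3, a matricellular gene of a wider list, was higher by 1.81. Tnc, tenascin-C, read 2.63, 2.84, 3.21 and 3.20 in the atria and 3.31, 3.30, 3.38 and 3.30 in the ventricles. It passed as lower (limma adjusted p = 0.039), but both means were under 4, so no size is set, and the call was lost without atrial replicate 1 or 2 or any ventricular array (limma adjusted p up to 0.10). All 4 atrial arrays of Tnc read below all 4 ventricular arrays, and so did those of Sparc, from 10.82 to 10.89 against 10.95 to 11.06. Sparc, osteonectin, a collagen-binding protein, had a difference of -0.15 that did not pass (limma adjusted p = 0.056) but passed in 5 other settings of scaling, statistic or filter (adjusted p from 0.0058 to 0.05 by SAM or limma). Thbs2 had a difference of -0.23 (limma adjusted p = 0.11), and Comp was under 4 in both tissues. Thbs2 passed when atrial replicate 2 was left out, at -0.30 (limma adjusted p = 0.043). Postn and Thbs4, periostin and thrombospondin-4, are given by array because of their spread, a choice made after their values were seen. Postn read 7.07, 7.72, 7.77 and 8.97 in the atria and 7.22, 7.61, 8.34 and 7.78 in the ventricles, a difference of 0.14 ± 0.35 (limma adjusted p = 0.77). Thbs4 read 3.94, 4.33, 4.42 and 5.25 against 4.43, 4.59, 4.71 and 4.87, a difference of -0.17 (limma adjusted p = 0.59). Their atrial pools spanned the whole ventricular range, and Thbs4 passed as lower without atrial replicate 4, at -0.42 (limma adjusted p = 0.023).

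Among basement membrane collagens, the 2 chains of the type IV network were lower and the other 2 genes did not pass, with a median of -0.72. Col4a1 read 9.31, 9.52, 9.36 and 9.88 in the atria and 10.68, 10.70, 10.85 and 10.72 in the ventricles. Its difference of -1.22 ± 0.11 was a fold of 2.33 (limma adjusted p = 1.3e-05), and its second probe set gave -1.16. Col4a2 read 8.96, 9.23, 8.91 and 9.45 in the atria and 10.27, 10.45, 10.46 and 10.28 in the ventricles. Its difference of -1.23 ± 0.11 was a fold of 2.34 (limma adjusted p = 1.3e-05). In both genes all atrial arrays were below all ventricular arrays, and atrial replicate 4 was the highest atrial array.

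Col4a1 and Col4a2 encode the chains that join as the ubiquitous type IV trimer. They lie head to head, and the 76 bases between their starts are shown because both genes had nearly the same difference. The stretch lies at chr16:84885521-84885596 of GRCr8 (RefSeq) and is written on the plus strand, with capitals for 1 GC box.
Col4a2 to Col4a1: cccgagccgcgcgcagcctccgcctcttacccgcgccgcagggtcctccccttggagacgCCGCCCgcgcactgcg
None of the other type IV chains measured was called lower. Col4a5 was higher by 0.52 (limma adjusted p = 8.6e-05) and Col4a6 by 1.16 (limma adjusted p = 5.9e-07), while Col4a4 had a difference of 0.04 that did not pass (limma adjusted p = 0.74) and Col4a3 was not measured. They are from a wider basement membrane list and were named after their values were seen.

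Col15a1, a basement membrane collagen of muscle and capillaries, read 10.33, 10.34, 10.36 and 10.37 in the atria and 10.33, 10.36, 10.46 and 10.37 in the ventricles. The pools of each tissue were nearly the same, and the difference of -0.03 ± 0.06 did not pass (limma adjusted p = 0.71). Col18a1, the source of endostatin, had a difference of -0.22 (limma adjusted p = 0.10).

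Laminins are trimers of an alpha, a beta and a gamma chain, and 4 of the 6 chains measured were lower, with a median of -0.27. Lama5, the alpha chain of laminins under mature endothelium and epithelium, read 5.84, 5.93, 6.06 and 6.15 in the atria and 7.16, 7.17, 7.14 and 7.24 in the ventricles. The ventricular pools were within a narrow range, the atrial pools all below, and the difference was -1.18 ± 0.08, a fold of 2.27 (limma adjusted p = 7.9e-07). Its 2 other probe sets, both under 4 in both tissues, gave -0.01 and 0.06 and did not pass. Lamb1, a beta chain, read 9.60, 9.55, 9.60 and 9.66 in the atria and 9.95, 9.93, 10.06 and 9.86 in the ventricles, a difference of -0.35 ± 0.06 (limma adjusted p = 0.0013). Lamc1, the gamma chain shared by most laminins, read 10.43, 10.39, 10.53 and 10.48 against 10.81, 10.74, 10.93 and 10.88, a difference of -0.39 ± 0.07 (limma adjusted p = 0.00084). Both genes had separate ranges in the tissues.

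The other alpha chains differed less. Lama4, the alpha chain of capillary laminin, had a difference of -0.16 that passed (limma adjusted p = 0.047) but was lost when any array other than atrial replicate 4 was left out (limma adjusted p up to 0.11). Lama2, the alpha chain of the cardiomyocyte basement membrane, had a difference of 0.02 ± 0.06 (limma adjusted p = 0.81), with overlapping arrays from 9.32 to 9.50 in the atria and from 9.38 to 9.45 in the ventricles. Lamb2 had a difference of -0.19 (limma adjusted p = 0.062), which passed without atrial replicate 2 or ventricular replicate 4, at an adjusted p of as low as 0.03 in limma, and in 6 other settings of scaling, statistic, filter or probe set (adjusted p from 0.017 to 0.047 by SAM or limma).

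The bases before the start of Lama5, the laminin with the largest difference, lie at chr3:187695975-187696224 of GRCr8 (RefSeq) and are written on the minus strand. Capitals mark 4 GC boxes, read on both strands as GGGCGG or CCGCCC.
Lama5: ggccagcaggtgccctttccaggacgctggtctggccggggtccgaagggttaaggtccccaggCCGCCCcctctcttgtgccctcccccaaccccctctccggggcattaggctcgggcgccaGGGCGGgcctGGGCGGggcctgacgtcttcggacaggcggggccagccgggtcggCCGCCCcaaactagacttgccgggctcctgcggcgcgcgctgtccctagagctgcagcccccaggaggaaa
RefSeq windows were at hand for 32 of the 48 genes. A GC box was found in 21 of their 33 windows (63.6%), beside 30.5% of all RefSeq windows. It was in 12 of 22 interstitial windows (54.5%) and in 9 of 11 basement membrane windows (81.8%). The windows of Col4a1 and Col4a2 share 76 bases with 1 GC box, which counts in both, and Vcan had more than 1 window. TATAAA was found in 5 of the 33 windows (15.2%), CCAAT in 10 (30.3%) and TGANTCA in 2 (6.06%). Of all RefSeq windows, 12.9%, 34.0% and 6.34% held them.

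Perlecan and nidogens connect the laminin and type IV collagen networks. Hspg2, which encodes the heparan sulfate proteoglycan perlecan, read 7.32, 7.47, 7.29 and 7.50 in the atria and 8.07, 8.09, 8.20 and 7.99 in the ventricles. No arrays overlapped, and the difference was -0.69 ± 0.07, a fold of 1.62 (limma adjusted p = 3.2e-05). Nid1 read 10.16, 10.17, 10.29 and 10.37 in the atria and 10.37, 10.29, 10.39 and 10.27 in the ventricles, a difference of -0.08 (limma adjusted p = 0.37). Nid2 had a difference of -0.03 ± 0.19 (limma adjusted p = 0.90). The nidogen arrays overlapped between tissues.

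**Figure D3:**
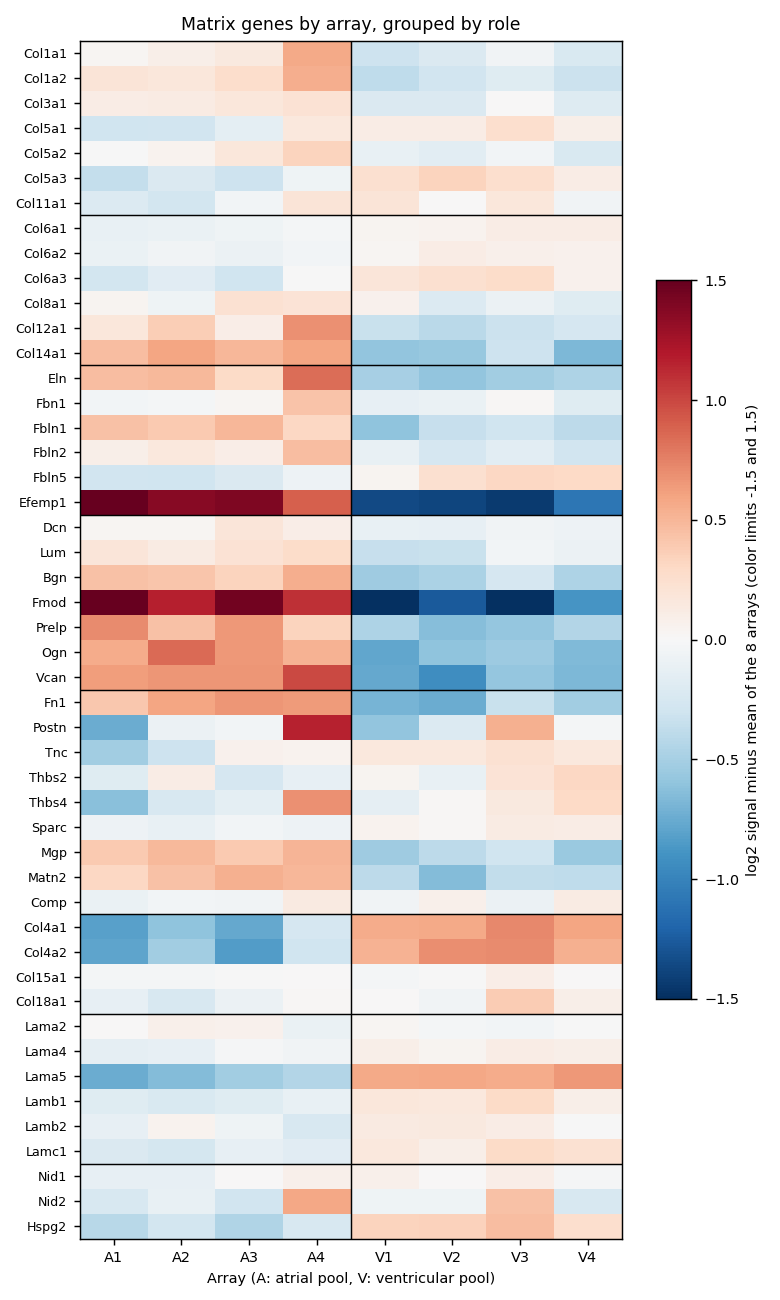
Log2 signal of each of the 48 matrix genes on each array, minus the mean of the gene over the 8 arrays, as color (A1 to A4 are the atrial pools, V1 to V4 the ventricular pools; values past the color limits take the end colors; lines separate the roles). The proteoglycan rows change color between tissues, the type IV collagen rows do so in the opposite direction, and A4 is redder than A1 to A3 in the fibrillar collagen rows.

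The matrix genes varied together between pools of the same tissue. Atrial replicate 4 was the highest atrial array in 32 of 48 genes (66.7%), where it was the highest in 30.6% of all genes. Ventricular replicate 3 was the highest ventricular array, also in 32 of 48 genes, and in 24.9% of all genes. In the atria all 7 fibrillar collagens were highest in replicate 4, with a median deviation of 0.25 from the tissue mean, and 5 of 7 were highest in ventricular replicate 3. Postn was the gene with the largest spread, with an SD of 0.79 in the atria and 0.47 in the ventricles, and it was highest in the same 2 arrays. Nid2, which read 7.59, 7.72, 7.55 and 8.41 in the atria and 7.77, 7.77, 8.28 and 7.59 in the ventricles, was highest in them too. Without both arrays, a setting chosen after the values were seen, 19 genes were higher and 11 lower, and 14 passed the stricter thresholds. These counts are descriptions, since genes of one array are not independent of each other.

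**Figure D4:**
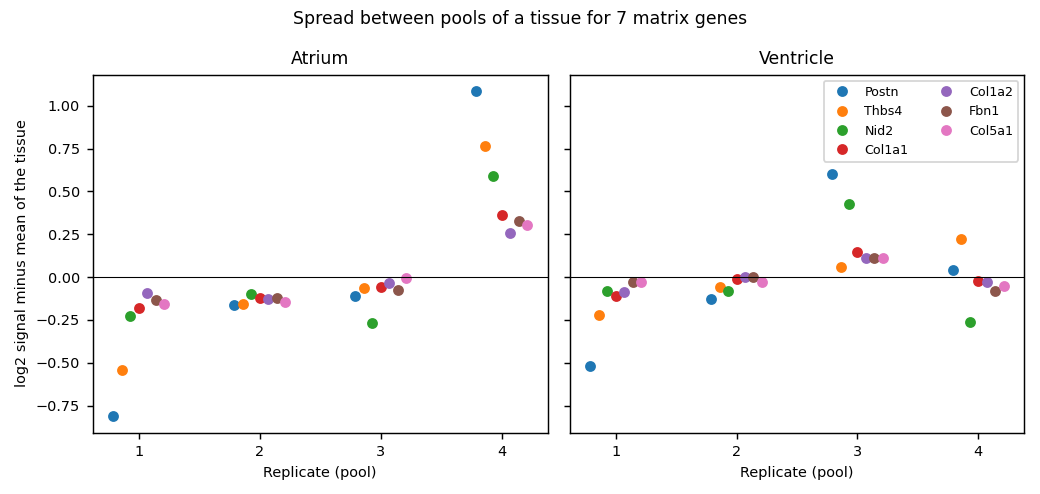
Log2 signal of 7 matrix genes in each pool minus the mean of the tissue, atria at left and ventricles at right, by replicate number. In the atria all 7 genes are highest in replicate 4, and in the ventricles all but Thbs4 are highest in replicate 3. These genes were picked for display. Of all 48 measured matrix genes, 32 were highest and 7 lowest in atrial replicate 4, and 32 were highest in ventricular replicate 3.

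A minority went the other way. Among the atrial arrays replicate 4 was the lowest in 7 of 48 genes (14.6%), where it was the lowest in 34.0% of all genes. These were Efemp1, Fmod, Prelp, Ogn, Fbln1, Lama2 and Lamb2, of which Efemp1, Fmod and Prelp were highest in replicate 1. This order was noticed in the values and was not tested.

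Markers of several cell types differed between the tissues along with the matrix genes. Of 15 fibroblast markers, 7 were higher in the atria (46.7%) and 1 lower (6.67%), where 22.5% of all genes were called in each direction. The other 7 did not pass, and the median was 0.31. The defining markers Pdgfra and Tcf21 were higher by 0.31 and 0.39, and the lower gene was Dpep1, at -0.72 (limma adjusted p = 0.00033). Mfap5 of this list is also in a wider list of matrix genes. The summed linear signal of the list was 4258 to 4948 in the atria and 3107 to 3501 in the ventricles. Of 11 measured mesothelial and epicardial markers, which belong to the surface layer of the heart, 10 were higher and 1 lower, with a median of 2.68 and sums of 1451 to 2676 in the atria against 267 to 294. Its defining marker Msln was higher by 4.40, Upk3b was not measured, and the lower gene was Wt1, a transcription factor of the epicardium, at -0.38 (limma adjusted p = 0.029). In 5 of the 11 genes the ventricular mean was under 4. Of 7 measured adipocyte markers, 5 were higher and 0 lower, with a median of 2.82. Their sums ran from 1597 to 5441 in the atria and from 2191 to 2427 in the ventricles. Most of the ventricular sums came from 1 gene, Fabp4, which read 11.03 to 11.19 there. Fabp4 did not pass, at -0.19 (limma adjusted p = 0.49). The defining marker Adipoq was higher, at 5.76, 7.04, 6.51 and 8.09 in the atria and 3.43 to 3.99 in the ventricles. In 3 of the 7 genes, Adipoq and the gene at the median included, the ventricular mean alone was under 4, and in 1 gene, Lep, both means were. The size of their differences and of that median is therefore not set. The gene at the median, Cidec, also varied between atrial pools, at 3.84, 6.25, 5.18 and 8.01.

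The order of the atrial arrays in these lists can be set beside the matrix genes. The median of the mesothelial and epicardial list, relative to the ventricular mean, was 3.12, 2.62, 2.60 and 2.37 in atrial replicates 1 to 4, highest in replicate 1 and lowest in replicate 4 as for Efemp1 and Fmod. The median of the adipocyte list was 0.84, 3.17, 2.19 and 4.47, and that of the fibroblast list 0.26, 0.30, 0.34 and 0.41. The median of the interstitial genes was 0.22, 0.28, 0.33 and 0.61, highest in replicate 4 as in both of these lists. Replicate 4 also had the highest median of the endothelial (-0.72), smooth muscle (-0.46), leukocyte (0.25) and Schwann cell and neuron (0.33) lists among the atrial arrays, so this order is not particular to fibroblast and adipocyte markers. The part of these cells in the differences was not tested.

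Markers of vessel cells were lower in the atria, as were the called genes among the 13 of the basement membrane. Of 12 measured endothelial markers 9 were lower and 1, Vwf, was higher, with a median of -0.81 and sums of 3815 to 3969 in the atria against 5479 to 5944. The defining marker Pecam1 had a difference of -0.61 and Cdh5 was not measured. All 8 pericyte markers were lower, with a median of -0.76, Rgs5 at -1.22, and sums of 1129 to 1277 against 2132 to 2271. Of 9 smooth muscle markers 8 were lower and 0 higher, with a median of -0.56, Myh11 at -1.13, and sums of 1923 to 2052 against 2872 to 3077. The median of the basement membrane genes was -0.26, -0.35, -0.30 and -0.29 in atrial replicates 1 to 4. Endothelial cells, pericytes and smooth muscle cells each make basement membrane, and their part in the difference was not tested. Leukocyte markers, with 6 of 14 higher and 4 lower, and Schwann cell and neuron markers, with 4 of 9 higher and 1 lower, had medians of -0.03 and 0.06. Of all genes 22.5% were called in each direction. Among leukocyte markers 42.9% were higher and 28.6% lower, and among Schwann cell and neuron markers 44.4% and 11.1%.

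**Figure D5:**
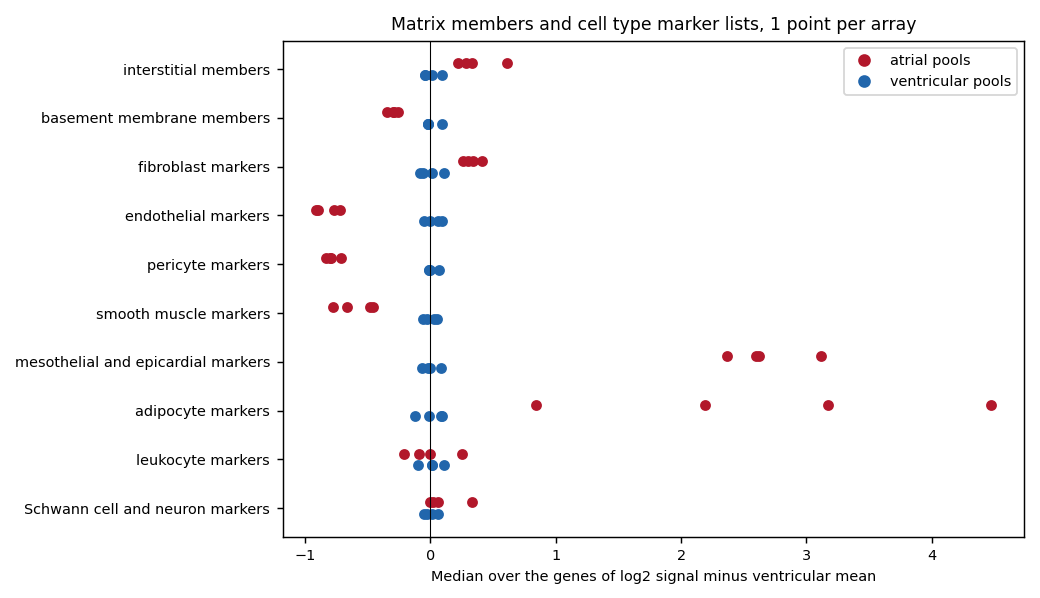
Median over the genes of each list of the log2 signal on an array minus the ventricular mean, 1 point per array, for the interstitial and basement membrane genes and 8 lists of cell type markers. Interstitial genes and fibroblast markers lie to the right in all atrial arrays, basement membrane genes and markers of endothelial cells, pericytes and smooth muscle lie to the left, and adipocyte markers spread from 0.84 to 4.47.

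Other matrix genes, from lists that are not part of the 49, were read in the same way. Of 57 measured genes of a wider interstitial list 21 were higher (36.8%) and 8 lower (14.0%), where 22.5% of all genes were called in each direction, with a median of 0.05. Past the stricter thresholds were 6 of them in the atrial and 1 in the ventricular direction. Of 15 measured genes of a wider basement membrane list 6 were higher and 5 lower, with a median of 0.04, so genes of the basement membrane beyond the 13 were called in both directions. The 5 called genes with the largest differences in the atrial direction were Smoc1 at 2.20, a calcium-binding protein of basement membranes, Ccn3 at 1.81, a matricellular regulator, Lamb3 at 1.70, a laminin chain of epithelia, Ltbp1 at 1.39, which stores TGF-beta in the matrix, and Thbs3 at 1.38 (limma adjusted p of at most 2.9e-05). In the ventricular direction they were Vtn at -1.30, the adhesive protein vitronectin, Egflam at -1.02, which binds dystroglycan, Agrn at -0.81, the heparan sulfate proteoglycan agrin, Vwa1 at -0.73, a ligand of perlecan, and Fbn2, fibrillin-2, at a difference of -0.66 whose size is not set, since both means were under 4 (limma adjusted p of at most 0.00066). Sparcl1, a relative of Sparc named after its values were seen, had the same difference with means of 10.21 and 10.87 (limma adjusted p = 0.00045). Smoc1 read 6.75, 6.24, 6.68 and 6.98 in the atria and 4.56, 4.38, 4.32 and 4.59 in the ventricles, a fold of 4.6 with no overlap. Agrn and Vwa1 were lower as Hspg2 was, and Lamb3 and Col4a6 were higher, unlike Lama5, Col4a1 and Col4a2.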

How the data were processed

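The values deposited by the authors are log2 signal intensities, made from the probe intensities of 8 arrays by Robust Multiple-Array Averaging (RMA, background adjustment, quantile normalization and summarization; its version is not given in the sources used here). They were used without further scaling, ran from 1.9 to 13.77 and had array medians of 4.8 or 4.81. Depth has no counterpart on arrays, and precision is limited by 4 pools per tissue, whose median SD was 0.117 for atrial and 0.0986 for ventricular pools. Tissues were compared with limma 3.58.1 in R 4.3.3, with Benjamini-Hochberg adjustment over 31042 probe sets and a threshold of 0.05. The stricter thresholds were a limma adjusted p under 0.0001, in place of the study's SAM false discovery rate, and its fold of 1.8. The procedure was tested on simulated data.

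Names come from the platform annotation, in which 20826 probe sets carry 1 gene, 436 carry several and 9780 have none here. A gene was read at its probe set with the highest mean. Means under 4 were treated as close to the lower limit of signal. Values by array are given, for each role, for the called members that differed most (up to 3 in each direction), the member with the highest mean and members with opposite calls, and of the wider lists the 5 largest in each direction are named. Members and lists were chosen with earlier results of these data known. List sums add signals on the linear scale. Alternatives were the SAM statistic of the study's methods, a trended and robust variance, a replicate block, 3 other scalings, other choices of probe sets, the dimmest 40% left out and single arrays left out. Promoter windows are those of RefSeq (GRCr8), and plots were made in matplotlib 3.10.9 and Python 3.11.15.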

Additional observations from a re-analysis of the deposited data

Results flagged for a closer look

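In 6 of the 96 groups of 4 arrays (48 genes in each tissue) a single array lay far from the other 3 by Dixon's test, where chance gives about 1 in 20 groups, or 4.8. Ventricular replicate 3 was the far highest array for Col3a1 at 12.11, for Col5a1 at 8.88 and for Tnc at 3.38, where the signal is near its low end. Atrial replicate 4 was the far highest array for Fbn1 at 10.26 and for Vcan at 8.35. Ventricular replicate 2 was the far lowest array for Matn2 at 6.57.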

How the results depend on the processing

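Called genes kept their direction and counts stayed within 1.5 times of the reported ones under every alternative run, apart from the exceptions given here. With a replicate block the genes past the stricter thresholds fell from 14 to 7, while 19 were higher and 10 lower. Pools with the same number had residual correlations of 0.134, 0.155, -0.148 and -0.188. Atrial replicates 1 and 2 correlated best with ventricular replicates 1 and 2. Atrial replicates 3 and 4 correlated best with ventricular replicates 4 and 3 (0.225 and 0.278). The animals in each pool were not listed, so whether these pools share animals is not known, and a fit with these pairs was not run. At the probe set with the lowest mean of each gene, the median difference of interstitial members was 0.202 and 4 genes changed sign, all at probe sets under 4: Col12a1 (-0.26), Fbln1 (-0.08), Vcan (-0.09) and Lama5 (0.06). The cause was not tested. The SAM statistic called 22 higher and 18 lower. With single arrays left out, 18 to 21 genes were higher, 9 to 15 lower, 27 to 34 called in all and 11 to 14 past the stricter thresholds. The medians then ran from -0.057 to 0.06 over all measured matrix genes. They ran from 0.285 to 0.409 over the interstitial and from -0.27 to -0.184 over the basement membrane genes. The call of 26 of the 33 called genes held in every setting that kept the probe set with the highest mean. The others were Col5a1, Col5a2, Col6a1, Dcn, Lama4 and Tnc, which lost it in 1 or more, and Col12a1. Col12a1 is among the dimmest 40%, and it also lost its call at the mean of all its probe sets. Col1a1 lost its call only at its probe set with the lowest mean. Leaving out pairs of arrays was added after the values had been seen. Quantile and loess scaling left 18 higher, with 14 and 15 lower. Signals under 4 set no size.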
